A study of Mus musculus with 141 samples.

Results

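The genes described here are 7 of the 36558 genes in the deposited tables: *Esr1*, *Pgr* and *Prlr*, which encode receptors for estrogen, progesterone and prolactin, and *Greb1*, *Areg*, *Wnt4* and *Tnfsf11*, which respond to these hormones in mammary tissue. They form a list fixed by name, with earlier results of these data known, and each was found once through its symbol. Inguinal white adipose tissue (iWAT, labelled subcutaneous adipose) was sequenced from mice of the Hybrid Mouse Diversity Panel (HMDP), a set of classical inbred and recombinant inbred strains. All mice ate chow until 8 weeks of age and then a high-fat, high-sucrose diet for 8 weeks, and tissue was taken after a fast of 4 hours. There are 67 libraries labelled female and 74 labelled male from 82 strains, and 59 strains have 1 library of each sex. The strains fall into 40 BXD, 11 AXB/BXA, 4 BXH and 3 CXB recombinant strains and 24 other inbred strains. The labels AXB19/PgnJ, AXB19a/PgnJ and AXB19b/PgnJ share a line number, and the tests treat them as separate, independent strains. The names of BXD24/TyJ-Cep290<rd16>/J (a BXD strain) and BTBR T<+> tf/J carry allele symbols, and both strains were kept. A strain has at most 1 library per sex, while the study's methods give 1 to 4 samples for each sex and strain. Each library title opens with a single number, read here as a mouse number. Whether a library holds RNA of 1 mouse or of several is not stated in the sources used here. Strain and mouse therefore cannot be told apart within a sex. The estrous stage of the females is not given in the sources used here.

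The inguinal fat pad of the female mouse encloses mammary ducts, which the male pad largely lacks. In mammary epithelium, estrogen acting on its receptor induces the progesterone receptor and growth factors such as amphiregulin, and progesterone in turn induces *Wnt4* and *Tnfsf11* (RANKL), which act on neighbouring cells. Prolactin signals through its own receptor to JAK2 and STAT5, and *Greb1* is a direct estrogen target in mammary and uterine cells.

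All 7 are protein-coding genes on different chromosomes of GRCm38. *Esr1* lies at chr10:4611593-5005614, *Pgr* at chr9:8899833-8968611, *Prlr* at chr15:10177238-10349180, *Areg* at chr5:91139599-91148432 and *Wnt4* at chr4:137277489-137299726, all on the plus strand. *Greb1* at chr12:16670615-16800886 and *Tnfsf11* at chr14:78277445-78308043 lie on the minus strand. RefSeq promoters of GRCm38.p6 were found for each gene, with 2 starts for *Esr1* and *Greb1* and 3 for *Prlr*. The 250 bases before the start were searched on both strands for the palindromic estrogen response element, its arm GGTCA, the progesterone or glucocorticoid receptor arm AGAACA, the STAT5 site TTCNNNGAA and the AP-1 site TGANTCA. The estrogen response element was in none of these 11 windows and in 0.0639% of all 32851 promoter windows. The arm GGTCA, which is also part of that element, was in both *Greb1* windows and in 35.2% of all windows. A STAT5 site was in 1 of the *Esr1* and 1 of the *Prlr* windows (7.02% of all), and an AP-1 site (6.75%) and an AGAACA arm (16.1%) each in 1 *Prlr* window. The cAMP response element TGACGTCA, added after the sequence was seen, was in the *Areg* window and in 1.55% of all windows. A match is a description of letters and not a site of binding. The windows of *Greb1* (the start at the gene's end in the annotation), *Areg*, *Pgr* and *Tnfsf11* are shown because these genes had the largest sex differences or the widest spread within females or, for *Greb1*, hold the estrogen arm. Each begins 250 bases before the start and runs 5′ to 3′ on the gene's strand, with matches in capitals (the *Greb1* match is on the opposite strand).
Greb1, chr12:16800887-16801136, minus strand: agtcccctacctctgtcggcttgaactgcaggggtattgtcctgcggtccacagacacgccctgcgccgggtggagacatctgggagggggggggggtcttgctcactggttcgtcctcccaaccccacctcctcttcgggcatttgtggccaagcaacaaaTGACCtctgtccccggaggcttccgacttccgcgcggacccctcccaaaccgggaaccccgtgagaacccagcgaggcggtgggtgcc
Areg, chr5:91139349-91139598, plus strand: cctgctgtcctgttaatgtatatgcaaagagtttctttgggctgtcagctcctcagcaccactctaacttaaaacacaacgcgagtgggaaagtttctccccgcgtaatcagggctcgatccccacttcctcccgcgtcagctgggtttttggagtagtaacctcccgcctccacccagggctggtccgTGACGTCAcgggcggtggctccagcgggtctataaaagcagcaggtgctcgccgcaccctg
Pgr, chr9:8899583-8899832, plus strand: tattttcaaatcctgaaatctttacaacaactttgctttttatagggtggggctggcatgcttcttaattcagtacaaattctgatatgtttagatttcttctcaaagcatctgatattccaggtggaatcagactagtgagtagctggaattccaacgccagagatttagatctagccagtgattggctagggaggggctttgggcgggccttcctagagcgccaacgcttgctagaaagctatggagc
Tnfsf11, chr14:78308044-78308293, minus strand: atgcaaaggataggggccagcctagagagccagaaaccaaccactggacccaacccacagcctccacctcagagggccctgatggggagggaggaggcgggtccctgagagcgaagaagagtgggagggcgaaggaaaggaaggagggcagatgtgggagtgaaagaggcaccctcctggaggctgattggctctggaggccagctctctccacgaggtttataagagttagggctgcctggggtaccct

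The libraries held between 6269154 and 78562648 estimated counts (median 30233245). A gene with no more than 3 counts was treated as undetected, which at the median depth is 0.0992 CPM (counts scaled to library size). Summed over *Ddx3y*, *Eif2s3y*, *Kdm5d* and *Uty*, Y-linked expression was 2.51 to 15.4 TPM (transcript abundance scaled for length and library size) in 65 libraries labelled female and 57.3 to 413.8 TPM in 73 labelled male. In 3 libraries it went against the label: the library labelled male of NZW/LacJ (4.08 TPM) and those labelled female of BXD69/RwwJ (263.8 TPM) and BXD34/TyJ (220.8 TPM). In BXD34/TyJ, the shallowest library, 208.1 TPM of that sum was *Uty*, and *Ddx3y* and *Eif2s3y* together were 3.89 TPM, nearer the highest of the other female libraries (2.85 TPM) than the lowest of the other males (46.9 TPM). Its *Kdm5d* was 8.80 TPM, beside means of 1.16 TPM in matched females and 9.84 TPM in matched males. No library was relabelled, and NZW/LacJ alone of these strains is among the 59 matched strains. The adipocyte markers were present in every library, with summed levels from 5845 to 65180 TPM.

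In females the order of the median levels in TPM, which are corrected for length, was *Prlr*, *Esr1*, *Areg*, *Wnt4*, *Pgr*, *Tnfsf11*, *Greb1*. In males it was *Esr1*, *Prlr*, *Wnt4*, *Tnfsf11*, *Areg*, *Greb1*, *Pgr*. Neighbours in each order were compared within libraries on log2(TPM + 0.01), by a two-sided permutation test of signs adjusted over 12 comparisons. In males, *Wnt4* and *Tnfsf11* did not differ beyond their spread, with *Wnt4* higher in 43 of 74 libraries (adjusted p = 0.219). In females, *Esr1* was above *Areg* in only 33 of 67 libraries, although the mean log2 ratio was 0.77 ± 2.81 (SD, adjusted p = 0.0317). The other 10 neighbours differed with adjusted p-values of 0.00702 or less, but in females only the log2 ratio of *Prlr* to *Esr1* (1.35 ± 0.94) was larger than its SD over libraries. In males *Areg*, *Greb1* and *Pgr* held 3 counts or fewer in 56, 28 and 61 of 74 libraries. The lower end of the male order therefore rests on few counts and is imprecise.

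**Figure D1:**
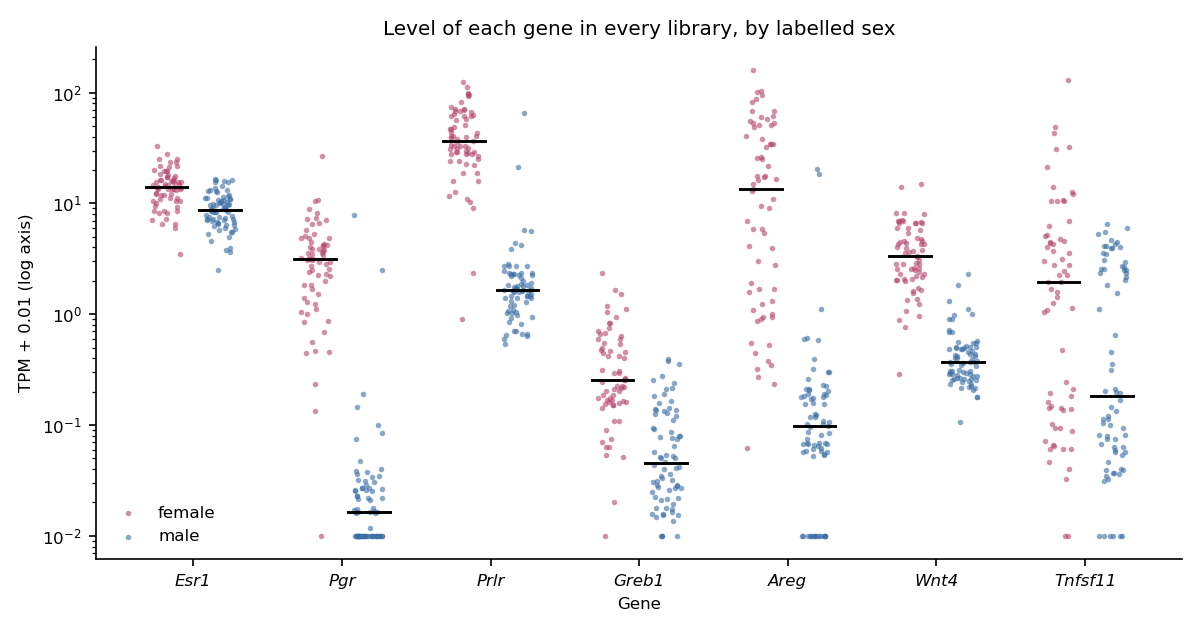
Level of each of the 7 genes in every library as TPM plus 0.01 on a log axis, with 67 libraries labelled female and 74 labelled male as points and the median as a line. *Esr1* overlaps widely between the sexes (medians of 14.1 and 8.79 TPM), *Pgr*, *Prlr* and *Wnt4* are separated but for a few libraries, low *Areg* females reach male levels, and *Tnfsf11* spreads widely in both.

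All 7 genes were higher in females in the edgeR quasi-likelihood test across the 59 matched strains with strain in the model (adjusted p under 0.05). Over all 16765 genes tested, 28.4% were called higher in females and 29.8% lower, 58.1% in all. The log2 fold changes (log2FC, female over male) of the 7 genes ranged from 0.70 to 7.75 with a median of 3.18, beside a median of 0.01 over all genes tested. In bulk tissue, fewer cells of a type and less RNA per cell cannot be told apart.

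*Esr1*, the nuclear estrogen receptor alpha, showed the smallest of these differences. Its level in females ran from 3.48 TPM (BXD34/TyJ) through a median of 14.1 to 32.6 TPM (BXD85/RwwJ), and in males from 2.49 (CXB11/HiAJ) through 8.79 to 16.5 TPM (BXA11/PgnJ). The sexes overlapped, and 48 of 67 female libraries were below the highest male. Matched females averaged 14.9 ± 5.34 TPM and matched males 9.04 ± 3.39 TPM (SD, n = 59), with 52 of 59 strains higher in the female. Females were 1.62-fold higher, with a log2FC of 0.70 ± 0.094 (SE, adjusted p = 4.53e-09). *Esr1* also varied least among the 7 genes within females, with 2.65-fold between the 10th and the 90th percentile.

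*Pgr*, the progesterone receptor, showed the largest log2FC of the 7 and the eighth largest of all genes tested. It ran from 0 (BXD69/RwwJ) through a median of 3.12 to 26.6 TPM (I/LnJ) in females. In males the median was 0.0065 TPM, 61 of 74 libraries held 3 counts or fewer and 31 held none. Only the libraries labelled male of NZW/LacJ (7.91 TPM) and PL/J (2.49 TPM) were above 0.181 TPM, the next highest male level (AXB19b/PgnJ). Without the 3 libraries against their label and the PL/J male, the sexes did not overlap, the lowest female being 0.226 TPM (AXB12/PgnJ). The log2FC was 7.75 ± 0.37 (SE, adjusted p = 1.31e-26), and its size is imprecise because the male counts are near the floor. Matched males averaged 0.191 ± 1.07 TPM (SD, n = 59), and without strain in the model the log2FC was 4.25.

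*Prlr*, the prolactin receptor, was the most abundant of the 7 in females. Its level ran from 0.902 (BXD69/RwwJ) through 36.3 to 124.8 TPM (I/LnJ) in females and from 0.524 (BXD50/RwwJ) through 1.64 to 65.1 TPM (NZW/LacJ) in males. After NZW/LacJ the highest males were PL/J at 21.2 TPM and AXB5/PgnJ at 5.70 TPM. The female library exceeded the male in 58 of 59 strains, and the test gave a log2FC of 4.42 ± 0.21 (SE, adjusted p = 3.50e-26). Without the 3 libraries against their label and the PL/J male, the lowest female level of 9.05 TPM (AXB12/PgnJ) was above every male.

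*Greb1*, a cofactor of the estrogen receptor, was the least abundant of the 7 in females. It ran from 0 (BXD34/TyJ) through 0.242 to 2.34 TPM (I/LnJ) in females and from 0 through 0.0351 to 0.383 TPM (NZW/LacJ) in males, where 28 of 74 libraries held 3 counts or fewer. The sexes overlapped, with 41 of 67 female libraries below the highest male. The log2FC was 3.18 ± 0.24 (SE, adjusted p = 5.32e-18), and the female library was higher in 54 of 59 strains in TPM and in 58 in log2 CPM.

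*Areg*, which encodes the EGF receptor ligand amphiregulin, ranged over more than any other of the 7 except *Tnfsf11*. In females it ran from 0.0521 TPM (BXD60/RwwJ) through 13.6 to 158.9 TPM (NZB/BlNJ), and the 90th percentile was 141.8-fold above the 10th. In males the median was 0.087 TPM, 56 of 74 libraries held 3 counts or fewer, and PL/J (20.4 TPM) and NZW/LacJ (18.2 TPM) stood above the next highest, CE/J at 1.11 TPM. The low female libraries reached male levels, and 14 of 65 were below the CE/J male when the libraries against their label and the PL/J male were left out. The log2FC was 6.99 ± 0.45 (SE, adjusted p = 6.80e-21), with the female library higher in 57 of 59 strains, and 5.15 without strain in the model.

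*Wnt4*, a secreted WNT ligand, ran from 0.281 (BXD69/RwwJ) through 3.35 to 14.9 TPM (NZB/BlNJ) in females and from 0.0975 (CXB11/HiAJ) through 0.359 to 2.32 TPM (NZW/LacJ) in males. No male library was above the female median. The log2FC was 3.12 ± 0.17 (SE, adjusted p = 1.09e-23), and the female library was higher in 57 of 59 strains in TPM and in 58 in log2 CPM.

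*Tnfsf11*, which encodes RANKL, ran from 0 (BXD34/TyJ) through 1.94 to 129.9 TPM (BXD71/RwwJ) in females and from 0 through 0.171 to 6.50 TPM (I/LnJ) in males. The sexes overlapped, and 26 of 74 male libraries were above the female median, the most of the 7 genes. Over the matched strains the log2FC was 1.90 ± 0.50 (SE, adjusted p = 0.000871), with the female higher in 47 of 59 in TPM and in 45 in log2 CPM. Its SD over female libraries, 2.88 on the log2 CPM scale, was larger than that of 99.3% of the genes tested, and that of *Areg*, 2.67, larger than that of 99.1%.

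**Figure D2:**
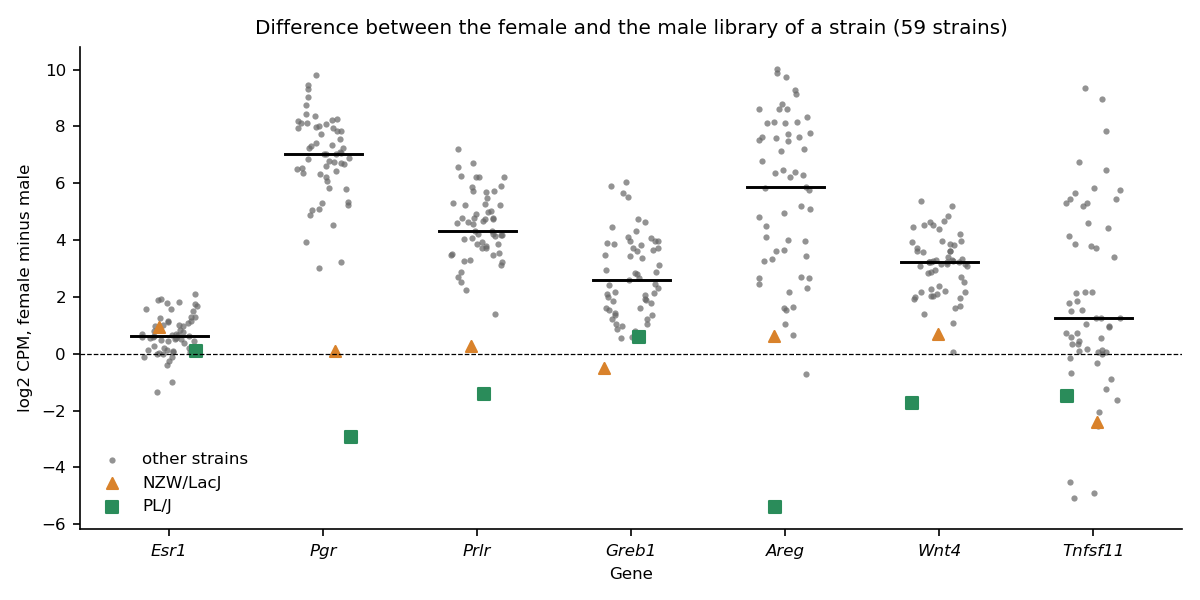
Difference in log2 CPM (prior count 2) between the female and the male library of each of 59 strains, with the median as a line and NZW/LacJ and PL/J marked. PL/J lies at -2.93 for *Pgr*, -1.41 for *Prlr*, -5.40 for *Areg* and -1.73 for *Wnt4*, the lowest strain for each, while the medians are 7.03, 4.32, 5.85 and 3.22.

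In PL/J the library labelled male was above the one labelled female for 5 of the 7 genes. *Areg* was 20.4 TPM in the male and 0.513 TPM in the female, *Pgr* 2.49 and 0.546 TPM, *Prlr* 21.2 and 12.6 TPM, and *Wnt4* 1.81 and 0.871 TPM. *Tnfsf11* was 0.444 and 0.202 TPM, while *Esr1* (9.58 and 16.2 TPM) and *Greb1* (0.370 and 0.584 TPM) were lower in the male. The Y-linked genes of the PL/J male summed to 73.5 TPM, within the range of the other male libraries, and its mammary epithelium markers to 407 TPM, against a median of 4.85 TPM in males. In NZW/LacJ, the library labelled male carried 736.3 TPM of these markers and the highest level of all males for *Pgr*, *Prlr*, *Greb1* and *Wnt4*. Without NZW/LacJ the log2FC of the 7 genes ranged from 0.69 to 7.90, and without both strains from 0.70 to 8.06, all called.

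Markers of other cell types were compared beside these genes. All 11 markers of mammary epithelium were higher in females, with log2FC from 4.91 to 8.14. Their summed level in females ran from 3.19 TPM (BXD69/RwwJ), 32.5 TPM (BXD34/TyJ) and then 132.6 TPM up to 4899 TPM (KK/HlJ). In males it ran from 0.717 TPM to 62.9 TPM apart from PL/J and NZW/LacJ, and the basal keratins *Krt5* and *Krt14* were listed at 0 in most male libraries. All 6 adipocyte markers were lower in females, with log2FC from -1.32 to -0.33. Of the 4 progenitor markers 2 were higher (*Dpp4*, 0.36, and *Pdgfra*, 0.28). Of the 3 keratinocyte markers tested, *Sbsn* (0.48) and *Krt10* (0.16) were higher and *Krtdap* (-1.60) lower. None of the 8 lymph node markers (log2FC from 0.49 to 0.91) and none of the 4 skeletal muscle markers tested passed. With the lymph node score in the model all 7 genes were still called, with log2FC from 0.77 to 7.49. The part of the other cell types in the differences of the 7 genes was not tested.

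Of the 7 other steroid receptors listed, none was called higher in females and 3 were lower: the membrane estrogen receptor *Gper1* (-0.66), *Pgrmc2* (-0.27) and the glucocorticoid receptor *Nr3c1* (-0.16). The second estrogen receptor *Esr2* (0.09 ± 0.14, SE, adjusted p = 0.591) did not pass. Of 11 partner factors of these receptors 6 were higher, led by *Foxa1* (7.55), *Tfap2c* (6.28) and *Cited1* (5.68), and 3 were lower, *Fkbp5* (-0.55), *Nrip1* (-0.18) and *Ncoa1* (-0.12). *Foxa1* is a pioneer factor for the estrogen receptor, and *Fkbp5* is a glucocorticoid-induced chaperone partner. With library totals in place of TMM, the median log2FC of all genes was 0.12, *Nr3c1*, *Nrip1* and *Ncoa1* were no longer called, and the mineralocorticoid receptor *Nr3c2*, at 0.01 with TMM, was called higher (0.12, adjusted p = 0.0393), as was the coactivator *Ncoa3* (0.21, adjusted p = 0.0240).

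Of 8 other estrogen-responsive genes 7 were tested, with 3 higher in females (*Stc2*, 1.89, *Myb*, 1.59, and the cyclin gene *Ccnd1*, 0.88) and 2 lower (*Igf1*, -0.35, and *Ctsd*, -0.23). *Tff1* was not tested at its mean levels of 0.0242 and 0.0284 TPM. In estrogen metabolism only 2 of 5 genes passed the filter on low counts, and both were lower, *Sult1e1*, which inactivates estrogens by sulfation, by a log2FC of -8.48 (mean 0.0219 TPM in females and 11.5 TPM in males) and *Hsd17b7* by -0.18. *Ctsd* and *Hsd17b7* were not called with library totals.

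Receptors for the ligands were listed with their pathways. In the EGF receptor system 4 of 9 genes tested were higher in females, led by *Erbb3* (3.39), *Erbb4* (2.17) and *Erbb2* (1.37), and 4 were lower, led by *Btc* (-0.88), *Hbegf* (-0.33) and *Egfr* itself (-0.32), the receptor that amphiregulin binds. In WNT signalling 2 of 10 were higher, *Lgr5* (3.04) and *Rspo1* (1.68), 1 was lower, *Procr* (-0.35), and the target gene *Axin2* stood at 0.00 ± 0.064 (SE, adjusted p = 0.969). In RANKL signalling 3 of 5 were higher, *Elf5* (5.64), the decoy receptor *Tnfrsf11b* (1.42) and *Id2* (0.56), while RANK itself, *Tnfrsf11a*, did not pass (0.08 ± 0.077, adjusted p = 0.385). In prolactin signalling 4 of 7 were higher, led by *Elf5* (5.64), *Stat5a* (0.44) and *Socs2* (0.32), and the growth hormone receptor *Ghr* was lower (-0.49). The medians of these 4 lists were -0.05, -0.03, 0.56 and 0.15. With library totals *Egf* (-0.02) was no longer called lower, and *Traf6* (0.15, adjusted p = 0.0165) and *Jak2* (0.16, adjusted p = 0.0252) were called higher, which made 4 of 5 in RANKL and 5 of 7 in prolactin signalling.

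The strain term was called for 5 of the 7 genes. It compares strains with the spread between the 2 libraries of a strain after the mean sex difference. The genes were *Pgr* (adjusted p = 2.60e-08), *Areg* (2.84e-06), *Prlr* (0.00105), *Tnfsf11* (0.00506) and *Greb1* (0.00556), while *Esr1* (0.0688) and *Wnt4* (0.227) did not pass. Of all genes tested 71.2% were called, so the share of the 7 is near that of all genes. In males *Pgr* and *Areg* held 3 counts or fewer in 61 and 56 of 74 libraries. Their strain terms therefore say little on whether the female and the male of a strain go together. Without NZW/LacJ the adjusted p of *Prlr* was 0.0856, and the other 4 were still called. With limma-voom *Prlr* (0.128) and *Tnfsf11* (0.537) were not called and *Wnt4* was (0.0421), and with library totals *Esr1* was called (0.0113).

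In females none of the 7 genes was called between BXD (32 libraries), AXB/BXA (9) and other inbred strains (21), with adjusted p-values from 0.139 to 0.687, where 12% of 18281 genes were called. The widest gap of medians was that of *Areg*, at 5.64 TPM in BXD, 6.86 TPM in AXB/BXA and 32.1 TPM in other inbred strains, with ranges of 0.0521 to 100.7, 0.336 to 40.5 and 0.513 to 158.9 TPM. In males, where 7.07% of 17631 genes were called, *Prlr* was called (adjusted p = 0.00117) with medians of 1.61, 1.80 and 1.62 TPM. That call rested on the library labelled male of NZW/LacJ, without which the adjusted p was 0.0657. *Pgr*, *Greb1* and *Areg* did not pass the filter on low counts in males. The edgeR test of the sex difference between families called none of the 7 genes (adjusted p = 0.999973 for each). It held 9 matched AXB/BXA strains, and a lack of calls does not show that the sex differences were equal. In that test 0% of 16778 genes were called by edgeR, with 678 at an unadjusted p under 0.05, and none by limma-voom, with 920.

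**Figure D3:**
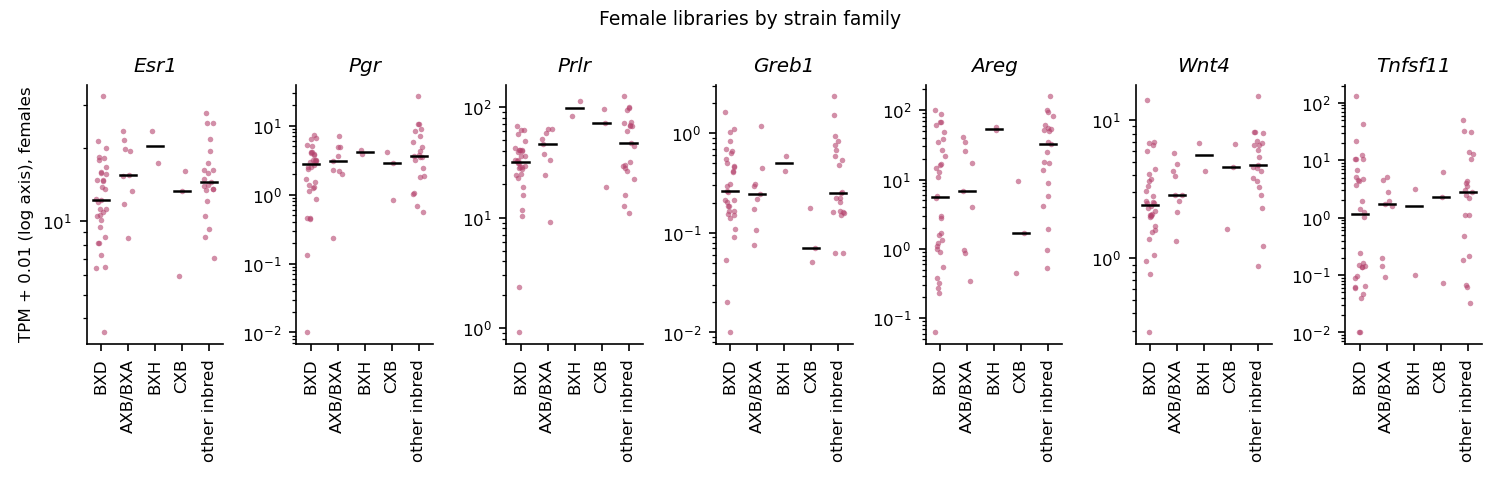
TPM plus 0.01 on log axes in the 67 female libraries by strain family (32 BXD, 9 AXB/BXA, 2 BXH, 3 CXB, 21 other inbred), each point a strain and each line a median. The BXD, AXB/BXA and other inbred strains overlap for every gene, and *Areg* has medians of 5.64 TPM in BXD and 32.1 TPM in other inbred strains.

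Recombinant strains were set beside their parents. C57BL/6J females were at 10.6 TPM for *Pgr*, 97.7 TPM for *Prlr* and 27.7 TPM for *Esr1*, and DBA/2J females at 3.21, 26.5 and 13.6 TPM. No BXD female was above both parents for *Pgr* or *Prlr*, 22 and 9 of 32 were below both, and 10 and 23 lay between them. For *Areg* (25.4 and 53.7 TPM in the parents) 23 of 32 BXD females were below both and 5 above, and for *Wnt4* (8.19 and 4.50 TPM) 27 were below and 1, BXD71/RwwJ, was above. Each parent is a single library, and the BXD females include the 2 libraries whose Y-linked genes go against their label.

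Within females the 7 genes formed a graded pattern of correlations on the log2 CPM scale, tested by permutation with p-values adjusted over 31 pairs in both sexes. *Pgr* and *Prlr* varied together (r = 0.80, rho = 0.64, adjusted p = 3.1e-05 and 5.17e-05, the smallest that the permutations can give), with r = 0.62 without the 2 libraries farthest from the median, 0.79 within BXD and 0.78 in the other strains. *Areg* varied with *Wnt4* (r = 0.59, rho = 0.60, adjusted p = 3.1e-05 and 5.17e-05) and with *Tnfsf11* (r = 0.56, rho = 0.58, adjusted p = 5.64e-05 and 5.17e-05). These were 0.61 and 0.53 without the 2 farthest libraries, 0.64 and 0.64 within BXD, and 0.47 and 0.43 in the other strains. *Pgr* and *Greb1* had r = 0.65 and rho = 0.54 (adjusted p = 3.1e-05 and 5.17e-05), and r = 0.57, 0.76 and 0.53 in the same order. Without the BXD34/TyJ and BXD69/RwwJ females the r was 0.65 for *Pgr* and *Prlr*, 0.58 for *Areg* and *Wnt4*, 0.55 for *Areg* and *Tnfsf11* and 0.58 for *Pgr* and *Greb1*, all still past the threshold. Both libraries are BXD, and without them the r of *Pgr* and *Prlr* within BXD was 0.40 in place of 0.79. *Prlr* and *Greb1* passed in all females by r (0.43, adjusted p = 0.00138) and not by rho (0.16, adjusted p = 0.265), nor by r without those libraries (0.21, adjusted p = 0.132). *Prlr* with *Tnfsf11* (r = 0.21, rho = 0.10, adjusted p = 0.117 and 0.477) and *Esr1* with *Areg* (r = 0.07, rho = 0.08, adjusted p = 0.594 and 0.562) did not pass.

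**Figure D4:**
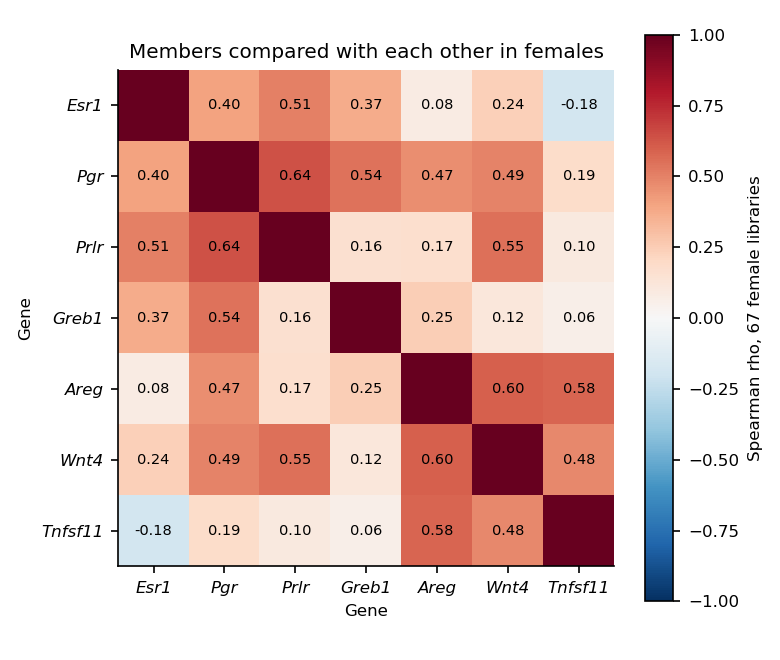
Spearman rho between each pair of the 7 genes over 67 female libraries, as a coloured matrix from -1 to 1. The highest values are *Pgr* with *Prlr* (0.64), *Areg* with *Wnt4* (0.60) and *Areg* with *Tnfsf11* (0.58), *Wnt4* is also near *Prlr* (0.55), and *Esr1* with *Tnfsf11* is at -0.18.

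The females at the extremes differed in which genes were high. BXD71/RwwJ, the highest for *Tnfsf11* at 129.9 TPM, was the second highest for *Wnt4* (13.9 TPM) and the third for *Areg* (100.7 TPM) of 67 libraries, and its *Pgr* was 4.18 TPM. NZB/BlNJ was the highest for *Areg* (158.9 TPM) and *Wnt4* (14.9 TPM) and second for *Tnfsf11* (49.3 TPM), with *Pgr* at 4.87 TPM. I/LnJ, the highest for *Pgr*, *Prlr* and *Greb1*, had *Areg* at 17.2 TPM, *Tnfsf11* at 1.09 TPM and *Wnt4* at 8.02 TPM, the last above 62 of the 67 females.

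The mammary epithelium score, the mean log2 CPM of the 11 markers, correlated in females with *Wnt4* (r = 0.77, rho = 0.71, adjusted p = 4.8e-05 and 6.86e-05 over 48 relations, permutation tests) and *Prlr* (r = 0.81, rho = 0.58, same p-values). Without the 2 libraries farthest from the median score, the r was 0.74 for *Wnt4*, 0.62 for *Prlr*, 0.54 for *Pgr*, 0.46 for *Tnfsf11*, 0.44 for *Areg*, 0.36 for *Greb1* and 0.23 for *Esr1*. Within BXD and within the other strains the r of *Wnt4* was 0.77 and 0.73, and that of *Prlr* 0.91 and 0.56 (0.67 within BXD without the libraries against their label). For *Esr1* the relation on this scale rests on those 2 libraries: it passed over all females (r = 0.37, rho = 0.24, adjusted p = 0.00579 and 0.0857) and not without the libraries against their label (r = 0.23, adjusted p = 0.116). On the log2(TPM + 1) scale it passed by r (0.49, adjusted p = 0.000218) and rho (0.39, adjusted p = 0.00438), with r = 0.35 without the 2 farthest libraries. The adipocyte score correlated with *Tnfsf11* in females (r = -0.61, rho = -0.71, adjusted p = 4.8e-05 and 6.86e-05, r = -0.61 without the 2 farthest, -0.64 within BXD and -0.61 in the other strains). Below and above the gap in the lymph node score, described next, that r was -0.35 and -0.32. The adipocyte score passed by rho and not by r for *Areg* (rho = -0.32, adjusted p = 0.0264, r = -0.26, adjusted p = 0.0702) and *Wnt4* (rho = -0.31, adjusted p = 0.0297, r = -0.25, adjusted p = 0.0765). It also passed by r for *Esr1* (r = 0.33, adjusted p = 0.0137) and not by rho (0.20, adjusted p = 0.148). In males only the PL/J and NZW/LacJ libraries had mammary epithelium scores of 4.70 and 5.27, and the others were at or below 1.67. No pooled correlation of the males with that score is therefore given. The library total was also correlated in females with *Greb1* by r (0.37, adjusted p = 0.00983), and not without the libraries against their label (0.14, adjusted p = 0.375). Without those libraries it passed for *Wnt4* (r = -0.30, adjusted p = 0.0346) and *Tnfsf11* (r = -0.38, adjusted p = 0.00225). Over the 74 male libraries it passed for *Wnt4* (r = -0.435, rho = -0.55, adjusted p = 0.00108 and 6.86e-05). For *Tnfsf11* in males it passed by r (-0.305, adjusted p = 0.0137) and not by rho (-0.25, adjusted p = 0.0731). The part of the library total in the other results was not tested.

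The lymph node score fell into separate clusters, with no library between 2.36 and 3.40 on the log2 CPM scale, and 34 females and 42 males below. Above that gap, *Tnfsf11* in males was 0.344 to 6.50 TPM with a median of 2.82 TPM (32 libraries). Below it, the male range was 0 to 0.304 TPM with a median of 0.0529 TPM, so the 2 ranges did not overlap. Within the clusters the r between *Tnfsf11* and the score was 0.53 and 0.76 in males and -0.17 and -0.01 in females, low cluster first. In females the low cluster ran from 0 through 0.131 to 129.9 TPM (BXD71/RwwJ) and the high cluster from 1.04 through 4.45 to 49.3 TPM (NZB/BlNJ). Within these female clusters *Areg* and *Tnfsf11* had r of 0.59 and 0.60, and *Wnt4* and *Tnfsf11* of 0.57 and 0.54. With the lymph node score in the model, an alternative added after the spread of this gene was seen, the log2FC of *Tnfsf11* between the sexes was 1.39 in place of 1.90 and still called. RANKL is made by lymphocytes and lymph node stroma as well as by mammary epithelium, and which cells carried it here was not tested. In males the lymph node score also passed for *Wnt4* (r = 0.54, rho = 0.54, adjusted p = 4.8e-05 and 0.00012, permutation tests). For *Greb1* r was 0.30 and rho 0.28 (adjusted p = 0.0201 and 0.0373). Within the clusters r was 0.15 and 0.06 for *Wnt4* and 0.12 and -0.08 for *Greb1*. *Prlr* passed by rho (-0.29, adjusted p = 0.0314) and not by r.

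**Figure D5:**
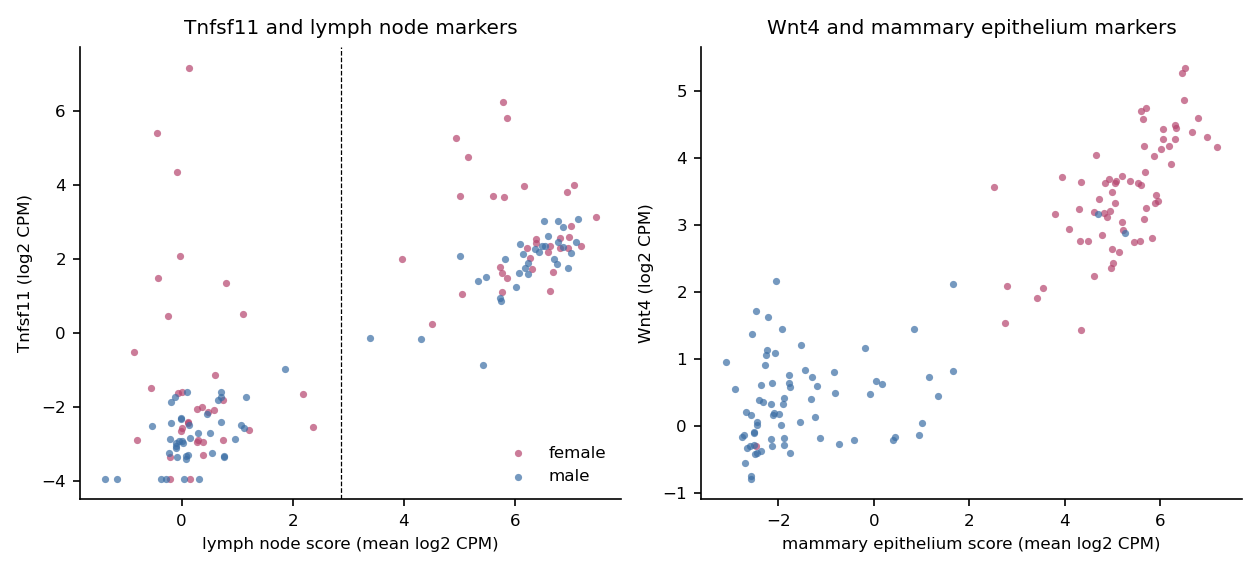
*Tnfsf11* against the lymph node score (left) and *Wnt4* against the mammary epithelium score (right), all in log2 CPM, each point 1 of 67 female or 74 male libraries, with a dashed line at 2.88 in the gap of the lymph node score. Males follow the lymph node score in *Tnfsf11*, some females left of the line reach high values, up to 129.9 TPM in BXD71/RwwJ, and *Wnt4* rises with the mammary score in females (r = 0.77).

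The genes most like each of the 7 over the 67 female libraries were named by Spearman rho among 16861 others, as a description. For *Prlr* they were *Tmem56* (0.95), *Foxa1* (0.90) and *Fgfr2* (0.90), and for *Pgr* *Cyp3a57* (0.85), *Zbtb8b* (0.80) and *Rbm20* (0.80). For *Tnfsf11* they were *Myc* (0.89), *Marcksl1* (0.86) and *Trp53* (0.86), for *Wnt4* *Prr15l* (0.82), *Slc35f3* (0.81) and *Arg2* (0.81), and for *Areg* *Alx4* (0.76), *Etv4* (0.74) and *Hpca* (0.73). *Esr1* was nearest to *Meis1* (0.71), *Tceal1* (0.64) and *Flvcr2* (0.61). *Greb1* was nearest to another of the 7, *Pgr* (0.54), then *Flnc* (0.54) and *Spon2* (0.53). In males the rho of these pairs was 0.71 to 0.80 for *Tnfsf11* and 0.36 to 0.64 for *Esr1*, against -0.02 to 0.08 for *Areg*, which lay near the floor in most males.

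No relation between the sexes across strains passed the test on the log2 CPM scale. Over the 59 matched strains, the correlation between the female and the male library was tested for the 5 genes with more than 3 counts in most male libraries. The r was 0.20 for *Esr1*, -0.09 for *Prlr*, 0.12 for *Greb1*, -0.15 for *Wnt4* and 0.22 for *Tnfsf11*, with rho from -0.10 to 0.22 and adjusted permutation p-values from 0.331 to 0.474 for r and 0.255 to 0.963 for rho. Without the 2 strains farthest from the median female value, r ranged from -0.08 to 0.33, and within BXD from -0.34 to 0.30. In the 19 strains where both libraries had a low lymph node score, the r was 0.66 for *Esr1* and from -0.28 to 0.27 for the other 4. On the log2(TPM + 1) scale *Esr1* passed (r = 0.42, adjusted p = 0.00445).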

How the data were processed

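RNA was extracted with the Qiagen RNeasy 96 kit, and mRNA libraries (KAPA mRNA HyperPrep) were sequenced as stranded, paired-end reads. The authors quantified transcripts with kallisto 0.46.1 against Ensembl release 97 (mm10) and tximport then gave gene values. Estimated counts were deposited without normalization, 30.3% of them with a fractional part. The deposited TPM values were scaled by the authors for transcript length. Of 36558 genes, 35935 were paired with a symbol through GENCODE M21.

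After rounding, filterByExpr and TMM scaling, edgeR 4.0.16 was fitted with strain and sex as terms (R 4.3.3, quasi-likelihood test, Benjamini-Hochberg adjustment over all genes tested). The study's methods used limma with that model, which is an alternative here (limma 3.58.1), as is DESeq2 1.42.0. The pair in this model is the strain named in the labels. Deviations from the sex means correlated between the libraries of a strain with a median r of 0.56, and r was over 0.1 in 45 of 59 strains. SEs were derived from log2FC and F. Correlations used log2 CPM (prior count 2), two-sided permutation tests with 100000 resamples and the analysis within BXD and the other strains. They were left out for *Pgr* and *Areg* in males, where most libraries held 3 counts or fewer, a choice made after the counts were seen. Family tests used families with at least 6 strains in a sex.

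In simulated counts for the sex difference, 99.5% of 199 genes changed by a log2 of 0.5 to 1 were called among 2995 genes, and 2.94% of the calls were false. Other steps ran in Python 3.11.15 (scipy 1.17.1, pandas 2.3.3, numpy 2.4.6), with figures from matplotlib 3.10.9.

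The members and lists were chosen with earlier results of these data known. Named are the 7 genes, the called genes with the 3 largest log2FC per list and direction, the Y-linked genes, the 3 genes most like each of the 7 and strains at an extreme. Pathway genes below these ranks are named where a clause on a receptor or target needs them (*Esr2*, *Axin2*, *Tnfrsf11a*, *Tff1*), chosen after their values were seen, as were the genes whose call changed with library totals (*Nr3c2*, *Ncoa3*, *Egf*, *Traf6*, *Jak2*), PL/J and the comparison with parent strains. Nothing says whether libraries of a sex share an extraction or sequencing run. The floor of 3 counts covers counting error only. Values of *Uty* and *Kdm5d* are uncertain. The 65 other female libraries held up to 13.6 TPM of *Uty*, above the lowest of the other males at 6.95 TPM. How kallisto assigned the reads of these 2 genes was not tested. The values of 1 listed gene are not reported here.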

Additional observations from a re-analysis of the deposited data

Results flagged for a closer look

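*Greb1* in the AXB13/PgnJ female stood at 1.17 TPM, far from the other 8 AXB/BXA females, of which the nearest was at 0.441 TPM. The gap was 0.66 of the group's range, above Dixon's 95% critical value for 9 libraries. Dixon's test assumes normally distributed values and was made on TPM without a log scale, where high values lie farther apart. This was the only 1 of 7 groups tested in this way that was singled out, and chance singles out about 1 in 20.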

How the results depend on the processing

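All 7 genes were called higher in females under each of the 13 alternatives that tested all of them. With at least 10 counts in every library only 3 were tested (*Esr1*, *Prlr* and *Wnt4*) and all 3 were called. With no replicate block the log2FC was 4.25 for *Pgr*, 5.15 for *Areg* and 3.69 for *Prlr*, against 7.75, 6.99 and 4.42. All 7 genes were called, among 8190 genes in all against 9747. The NZW/LacJ and PL/J males, far above the other males for these 3 genes, were in both fits, and their part was not tested. On the log2(TPM + 1) scale, which understates low genes, the log2FC was 1.94 for *Pgr* and 0.38 for *Greb1*. With library totals 7410 genes were higher and 2774 lower, against 4759 and 4988. Between families in females 775 genes were called by limma-voom, 3717 with no filter and 1431 without the libraries against their label, against 2189, and none of the 7 under any of these. In males, where *Prlr* alone was called, 0 of the 7 were called by limma-voom (*Prlr* adjusted p = 0.277), by DESeq2 (which gave *Prlr* no adjusted p) and without the library against its label. With no filter 4 were called (*Prlr*, *Pgr*, *Greb1* and *Areg*), among 2282 genes against 1247. The strain term of *Prlr* and *Tnfsf11* was lost with limma-voom (adjusted p = 0.128 and 0.537), and that of *Esr1* (0.0113, library totals) and *Wnt4* (0.0421, limma-voom) passed. Between the sexes across strains 1 correlation passed on the log2(TPM + 1) scale and none otherwise. The cause of these changes was not tested. Depth limits the male values of *Pgr* and *Areg* most.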
